A study of Homo sapiens with 12 samples.

Results

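The difference between 2 human retinoblastoma cell lines, WERI-Rb-1 and Y79, in their response to THZ1 was measured over 10296 genes. The genes were chosen by level, under a rule set with earlier results of these data known. They were Ensembl genes with a mean of at least 5 CPM over the 3 DMSO libraries of each line. CPM are counts scaled to a common library total. The deposited table held 27505 features (19974 Ensembl genes and 7531 unannotated loci). Cells of each line, grown in multiwell plates, received 50 nM THZ1 or 0.1% DMSO, the solvent, for 12 h, and RNA of 3 samples per group was sequenced, 12 libraries in all. Both lines carry the genotype label WT, and each is 1 established line, so a difference between lines describes these lines and not other tumours. The labels do not say whether the 3 samples of a group were separate cultures, so p-values measure the spread between these samples, which may be technical.

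THZ1 is a covalent inhibitor of CDK7, the kinase of the general transcription factor TFIIH that phosphorylates the tail of RNA polymerase II and activates other cyclin-dependent kinases. It also binds CDK12 and CDK13, which act on elongating polymerase. Retinoblastoma cells carry photoreceptor-lineage transcription factors such as CRX and OTX2, and Y79 is a line with amplified MYCN, the transcription factor named in the study's title.

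The measure used throughout is the line difference: the log2 fold change of THZ1 over DMSO in Y79 minus that in WERI-Rb-1. A negative value means that the level after THZ1, relative to DMSO, was lower in Y79. A gene is "called" at a Benjamini-Hochberg adjusted p under 0.05 in edgeR's quasi-likelihood test, adjusted over all 18844 features tested, and levels are CPM after TMM scaling unless another scale is named. Values given with ± are standard errors for log2 values.

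The libraries held 29677575 to 37433574 counts. The 10 photoreceptor-lineage markers were all at 1 CPM or more in each of the 4 groups, and their summed level (library-size scale) was 2950 to 3040 CPM with DMSO and 1360 to 1370 CPM with THZ1 in WERI-Rb-1, and 1500 to 1520 CPM and 594 to 610.0 CPM in Y79. Of 14 markers of glia and pigment epithelium, 6 to 8 reached 1 CPM. Their sum was 330.0 to 332 CPM with DMSO and 352 to 373 CPM with THZ1 in WERI-Rb-1, and 804 to 822 CPM and 507 to 546 CPM in Y79. Of 11 markers of stroma and blood 2 to 4 reached 1 CPM, with sums of 33 to 38.9 CPM and, with THZ1, 55.8 to 56.6 CPM in WERI-Rb-1, and of 11.7 to 15 CPM and, with THZ1, 23.5 to 32.2 CPM in Y79. GLUL, APOE, VIM, BEST1 and CLU of the former and COL1A1 and HBA1 of the latter reached 1 CPM in all groups. At 0 counts in both groups of at least 1 line were TYR, RLBP1, TYRP1, CDH5, COL3A1 and LUM. Their part in the results was not tested. RB1, the retinoblastoma tumour suppressor gene, was at 0 to 0.16 CPM in the WERI-Rb-1 libraries and at 54.8 to 89.3 CPM in those of Y79, so the libraries differ by line as labelled.

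After THZ1 the share of counts from the 13 mitochondrially encoded mRNAs was 9.79% to 11.2% in WERI-Rb-1 and 8.44% to 9.73% in Y79, against 3.74% to 4.46% in all DMSO libraries. Ribosomal protein mRNAs made up 2.81% to 3.17% of counts with DMSO and 6.29% to 6.72% with THZ1 in WERI-Rb-1, and 4.61% to 4.7% and 10.7% to 14.9% in Y79. Replicate 2 of Y79 with THZ1 stood apart: ribosomal protein mRNAs were 14.9% of its counts, against 11% and 10.7% in replicates 1 and 3. Values without it are given beside the calls over all genes. For list counts and the line differences of single called genes they are given where it moved them by over 1.5 times. Smaller changes of other list counts, and some list medians without it, are not printed.

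All log2 changes are relative to the bulk of the mRNAs, because the table holds no added standard. Setting the mitochondrially encoded mRNAs equal in all libraries moved the median change of the 10296 genes from -0.20 to -2.10 in WERI-Rb-1 and from -0.25 to -1.96 in Y79. "Rose" and "fell" in a line therefore mean a change relative to the other mRNAs of that line, and fewer RNA molecules per cell cannot be told apart from fewer cells of a type. The line difference moved less: its median was -0.05 with TMM, -0.03 with the RLE size factors of DESeq2, -0.17 by library size alone, 0.14 with mitochondrial scaling and -0.38 when ribosomal protein mRNAs were set equal.

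The responses of the lines ran largely in parallel. In WERI-Rb-1 3129 genes rose and 4777 fell, against 27.7% and 37.2% of the 14865 Ensembl genes tested, and in Y79 3192 rose and 5061 fell, against 29.9% and 38.5%. The log2 fold changes had the same sign in both lines for 8904 of the 10296 genes (86.5%), and across genes their Pearson r was 0.9 and Spearman's rho 0.894. These genes share the libraries of their line, so the correlation is a description. The changes were spread more widely in Y79, with an SD over genes of 1.04 against 0.91 on the log2 scale.

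Within this shared response 2883 genes (28%) were called for a line difference, 1043 of them higher in Y79 (10.1%) and 1840 lower (17.9%). Over all 14865 Ensembl genes tested the share called was 22.0%, 8.73% higher and 13.2% lower, and among the 4569 tested genes below the level rule it was 8.32%. The line difference ranged from -3.05 to 2.63, both ends being genes that were not called, with a median standard error of 0.153, and 310 called genes differed by at least 2-fold, 245 lower and 65 higher in Y79. Its SD over genes was 0.454, smaller than that of the response in either line.

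How many genes were higher and how many lower depended on the scaling. The split of 1043 higher and 1840 lower became 1089 and 1678 with RLE factors, 546 and 2535 by library size alone, 1480 and 638 with mitochondrial scaling, and 47 and 2109 with ribosomal protein scaling. Of the called genes, 543 were called higher and 638 lower with TMM, library size and mitochondrial scaling alike, and 47 and 634 under all 5 scalings. Without replicate 2 of Y79 with THZ1 the counts were 1817 higher and 2841 lower, and 2863 of the 2883 genes (99.3%) remained called in their direction.

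**Figure D1:**
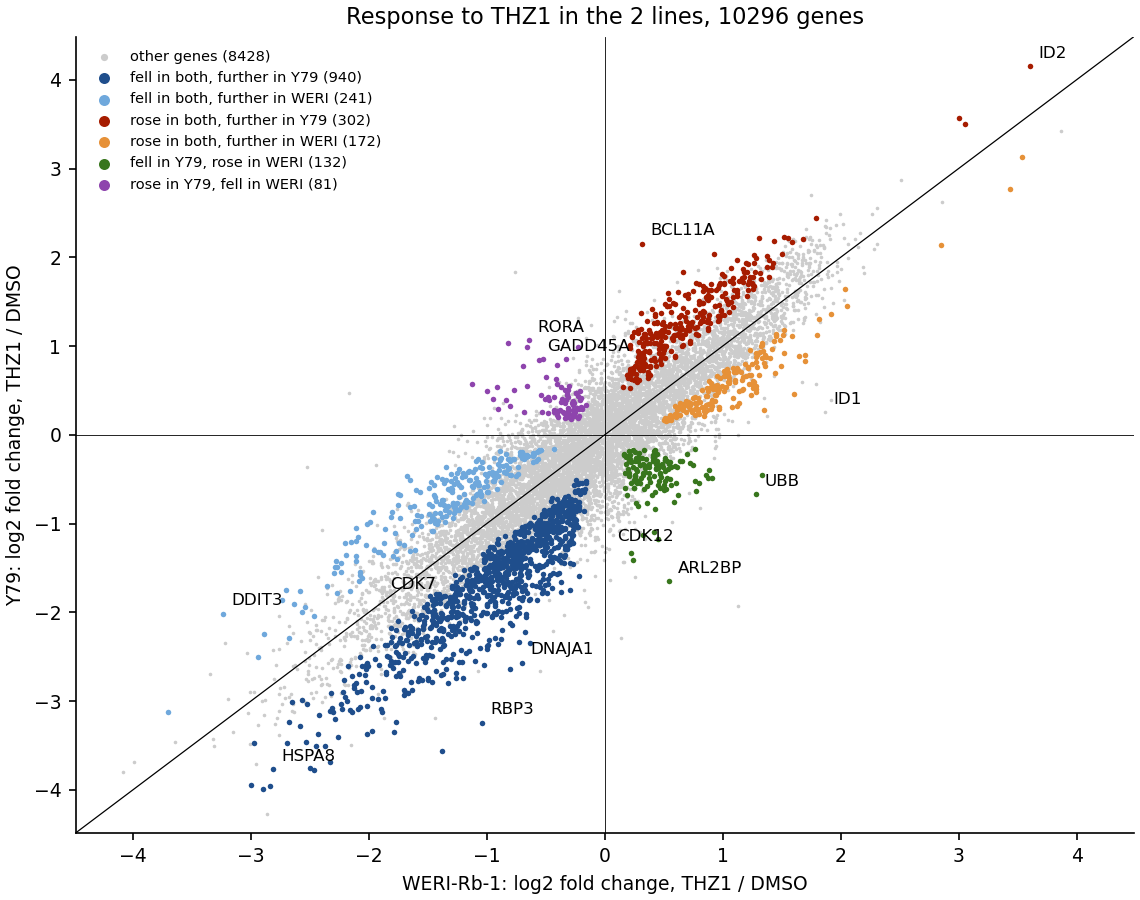
Each point is 1 of 10296 genes, with its log2 fold change of THZ1 over DMSO in WERI-Rb-1 on the horizontal axis and in Y79 on the vertical axis (edgeR, TMM). The diagonal marks equal responses and colours mark the 6 classes of genes called in both lines and in the line difference; most points follow the diagonal, and 940 dark blue genes lie below it among those that fell in both lines.

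**Figure D2:**
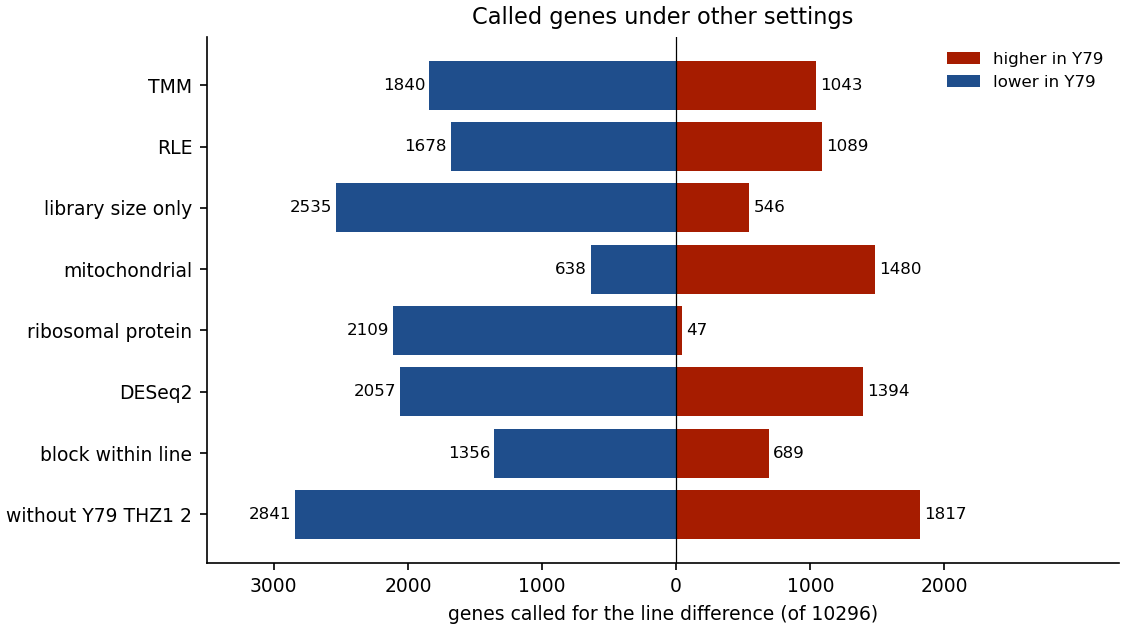
Horizontal bars show how many of the 10296 genes were called higher (right, red) or lower (left, blue) in Y79 under 8 settings, with the counts printed. The lower side is the larger in each setting but mitochondrial scaling, where 1480 genes were higher and 638 lower.

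The level rule left genes on both sides of its limit. Just inside were CLSTN2 at 5.001 CPM and SRPX2 at 5.0019 CPM in Y79 with DMSO (library-size scale), and just outside were PGBD2 at 4.9945 CPM in Y79 and GATM at 4.9784 CPM in WERI-Rb-1. Their line differences were 0.12 ± 0.18 for CLSTN2, -0.16 ± 0.46 for SRPX2, -1.31 ± 0.38 for PGBD2 and 0.05 ± 0.30 for GATM.

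Sorting the 2883 genes by their calls in each line gave 1 large class and several small ones. The largest held 940 genes (32.6% of those called) that fell in both lines and further in Y79, with median changes of -0.87 in WERI-Rb-1 and -1.61 in Y79. A further 241 genes fell in both and further in WERI-Rb-1 (medians -1.27 and -0.66), 302 rose in both and further in Y79 (0.62 and 1.23), and 172 rose in both and further in WERI-Rb-1 (1.01 and 0.52). Changes called in opposite directions were seen for 132 genes that fell in Y79 and rose in WERI-Rb-1 and for 81 that rose in Y79 and fell in WERI-Rb-1. The change was called in Y79 alone for 379 genes that fell and 219 that rose. It was called in WERI-Rb-1 alone for 198 that fell and 216 that rose. In these genes the other line missed the threshold, which does not show that it was unchanged. Another 3 genes were called in neither line.

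Whether the directions were opposite depended on the scaling. Under mitochondrial or ribosomal protein scaling 0 of the 132 and 0 of the 81 genes had opposite signs, since all had negative changes in both lines, and by library size alone 49 and 12 did. The line difference of all 132 and all 81 genes kept its sign under these scalings. It remained called for 132, 96 and 127 of the 132 genes by library size, mitochondrial and ribosomal protein scaling, and for 72, 81 and 13 of the 81 genes. Without replicate 2 of Y79 with THZ1 all 132 and all 81 kept opposite signs and their call.

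Of the genes named because they fell in Y79 and rose in WERI-Rb-1, relative to the other mRNAs, ARL2BP had the largest line difference. It encodes a binding partner of the small GTPase ARL2 (ENSG00000102931, chr16:57245098-57253635, plus strand, GRCh38). Its level was 55.5, 51.9 and 51.1 CPM in the WERI-Rb-1 DMSO libraries and 79, 74.6 and 78 CPM with THZ1. In Y79 it was 19.2, 19 and 20.1 CPM with DMSO and 7.64, 7.5 and 3.45 CPM with THZ1. Treated and control libraries did not overlap in either line, which was a condition for naming a gene from a class. They moved apart in opposite directions, which defines this class. The changes were 0.55 ± 0.17 in WERI-Rb-1 and -1.65 ± 0.19 in Y79, a line difference of -2.20 ± 0.26 (adjusted p = 0.000121). Its exons overlap those of PLLP over 1733 bp, and reads in that stretch cannot be assigned.

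UBB, a polyubiquitin gene (ENSG00000170315, chr17:16380798-16382745, plus strand), differed in level and in response. With DMSO it was at 32.5, 36.1 and 35.6 CPM in WERI-Rb-1 and at 499.9, 479 and 508 CPM in Y79. With THZ1 it was at 86.7, 79.6 and 87.1 CPM in WERI-Rb-1 and at 286, 394 and 258 CPM in Y79. The level in Y79 was thus 14.3 times that in WERI-Rb-1 without THZ1 and 3.7 times with it, and every Y79 library stayed above every WERI-Rb-1 library. The line difference was -1.95 ± 0.17 (adjusted p = 2.04e-05), and -2.15 without replicate 2 of treated Y79, whose 394 CPM was the highest treated value of that line. Ubiquitin repeats are nearly identical between polyubiquitin genes, so the counts of UBB are uncertain.

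The other genes named from this class serve signalling, copper import and mitochondria. GNG10, a G protein gamma subunit, was at 22.9 ± 0.34 CPM (SD, n = 3) with DMSO and 57.9 ± 3.87 CPM with THZ1 in WERI-Rb-1, and at 14.2 ± 1.31 and 10.4 ± 1.56 CPM in Y79. Its line difference was -1.79 ± 0.15 (adjusted p = 1.72e-05), and its exons lie within a readthrough gene, DNAJC25-GNG10. SLC31A1, the copper importer, had a line difference of -1.64 ± 0.12 (adjusted p = 6.29e-06). BOLA3, a mitochondrial iron-sulphur cluster assembly factor, and MRPS10, a protein of the small mitochondrial ribosomal subunit, had line differences of -1.63 ± 0.24 and -1.55 ± 0.11 (adjusted p = 0.000533 and 6.29e-06). All 6 genes were called with the same sign under all 5 scalings. TMM, library size and mitochondrial scaling were conditions of naming them, so only RLE and ribosomal protein scaling were free to differ.

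Among genes that rose in Y79 and fell in WERI-Rb-1, RORA encodes a nuclear receptor active in photoreceptors (ENSG00000069667, chr15:60488284-61229319, minus strand). It was at 60.5, 51.5 and 58.8 CPM with DMSO and 36.3, 39.4 and 34 CPM with THZ1 in WERI-Rb-1. In Y79 it was at 38.7, 35.9 and 35.5 CPM with DMSO and 89.4, 59.3 and 81.9 CPM with THZ1. Groups did not overlap within a line, as the naming rule required, and replicate 2 of treated Y79 was the lowest of its group. The line difference was 1.71 ± 0.18 (adjusted p = 4.81e-05), and the order of the lines turned, from a Y79 level 0.645 times that of WERI-Rb-1 with DMSO to 2.1 times with THZ1.

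GADD45A, a growth arrest gene that p53 can induce (ENSG00000116717, chr1:67685061-67688338, plus strand), was at 111, 116 and 111 CPM with DMSO and 75.1, 76.5 and 77.7 CPM with THZ1 in WERI-Rb-1. The Y79 libraries were at 33.4, 39.5 and 36 CPM and 69.4, 73.2 and 53.4 CPM. THZ1 brought the lines closer, from a Y79 level 0.323 times that of WERI-Rb-1 to 0.855 times, with a line difference of 1.40 ± 0.14 (adjusted p = 4.16e-05). RPS26, a ribosomal protein gene, had the largest line difference of the genes named from this class, 1.85 ± 0.24 (adjusted p = 0.000314). Its levels were 60.7, 63.2 and 54.5 CPM and, with THZ1, 41.8, 23.5 and 36 CPM in WERI-Rb-1, and 149, 151 and 146 CPM and, with THZ1, 263, 371 and 277 CPM in Y79. RPS26 has near-identical copies in the genome, so its counts are uncertain.

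RHOC, a small GTPase, and RGS10, a regulator of G protein signalling, had line differences of 1.70 ± 0.24 and 1.46 ± 0.22 (adjusted p = 0.000333 and 0.000574). AHNAK, a very large scaffold protein, had 1.65 ± 0.33 (adjusted p = 0.00368), with treated Y79 libraries at 34.1, 14.8 and 33.7 CPM against 14.5, 13.1 and 13.9 CPM in DMSO. The treated group of Y79 was uneven for AHNAK, with replicate 2 close to the DMSO level, and without that replicate its line difference was 1.95. Of these 6 genes 5 were called with the same sign under all 5 scalings, AHNAK being the exception. The calls under TMM, library size and mitochondrial scaling were again conditions of naming them.

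**Figure D3:**
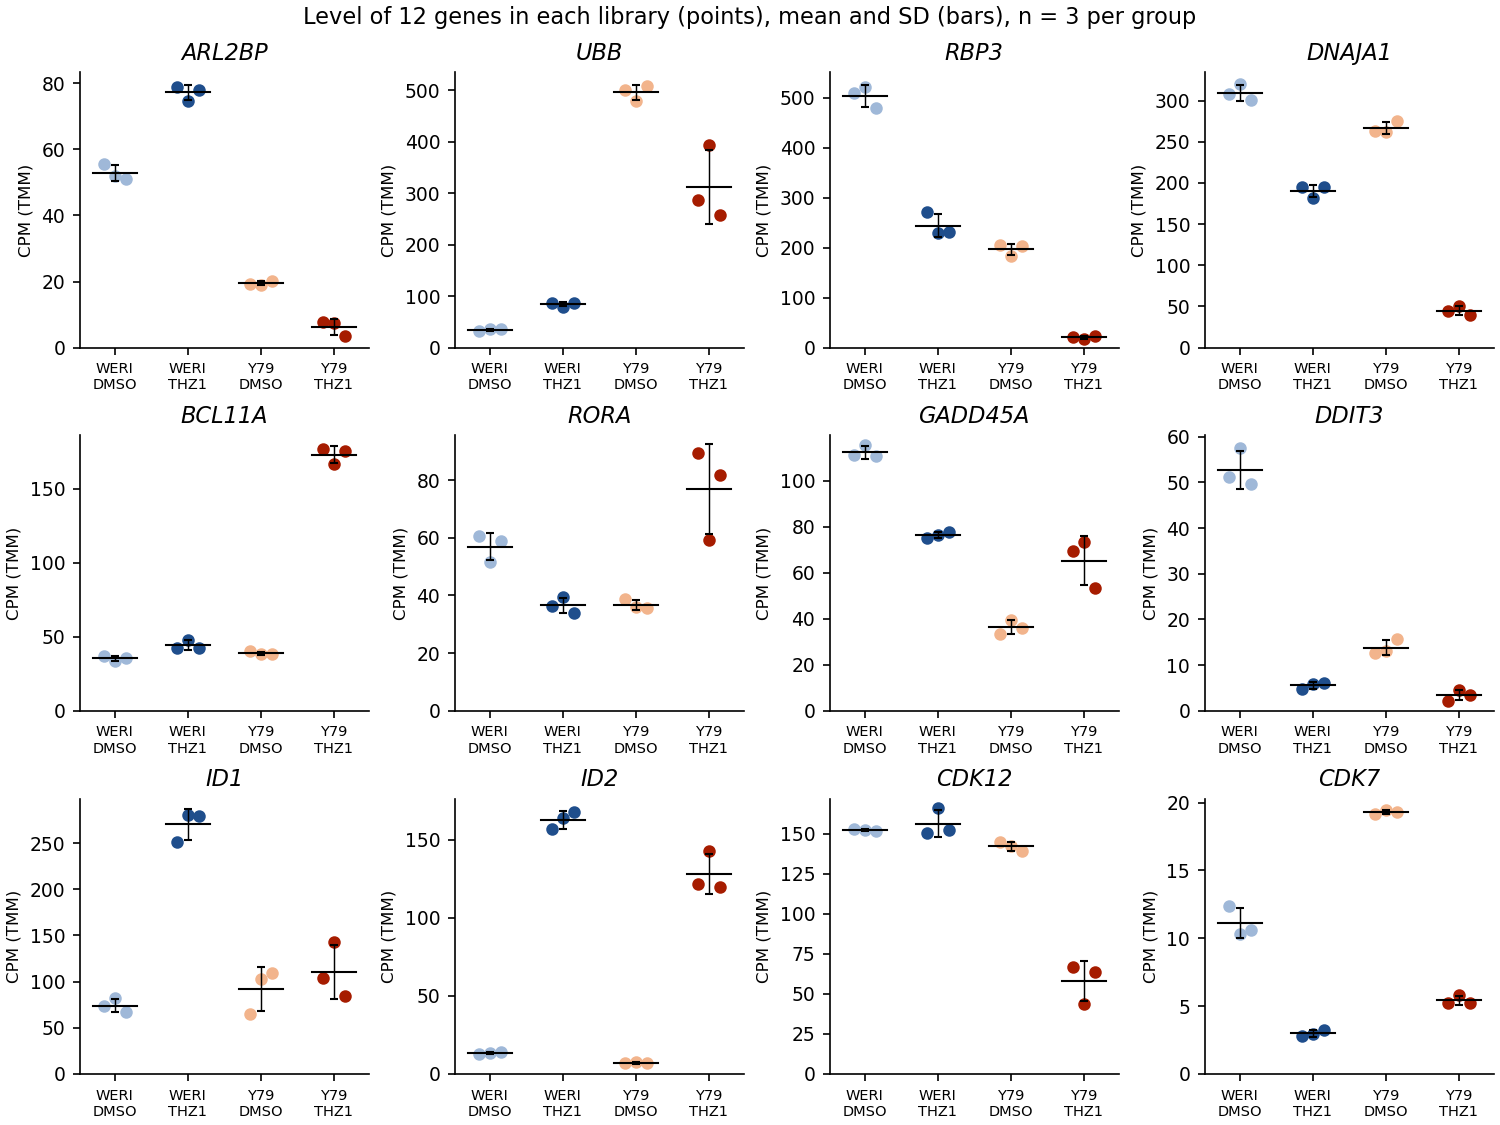
Each panel shows the level of 1 gene in CPM (TMM scale, axis from 0) in the 12 libraries by group, with a point per library and the mean and SD of 3 as bars. ARL2BP and UBB rise in WERI-Rb-1 and fall in Y79, RORA and GADD45A do the reverse on this scale, BCL11A is high in the treated Y79 libraries alone, and CDK7 falls in both lines.

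RBP3 led the genes named because they fell in both lines and further in Y79. It encodes the retinoid-binding protein that photoreceptors secrete into the space between retina and pigment epithelium (ENSG00000265203, chr10:47348371-47357875, plus strand). It was at 509, 522 and 479 CPM with DMSO and 271, 229.6 and 232 CPM with THZ1 in WERI-Rb-1. Levels in Y79 were 204, 184 and 202 CPM with DMSO and 21.3, 17.6 and 23.3 CPM with THZ1. The fall was 2.06-fold in WERI-Rb-1 and 9.47-fold in Y79, a line difference of -2.20 ± 0.14 (adjusted p = 2.11e-06). All treated libraries lay below all DMSO libraries of their line, as the naming rule required of genes of this class.

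CD3EAP, a subunit of RNA polymerase I, fell 2.6-fold in WERI-Rb-1 and 11.8-fold in Y79, with a line difference of -2.19 ± 0.26 (adjusted p = 0.000113). It started at 6.41 ± 1.11 CPM (SD, n = 3) in WERI-Rb-1 and 34.5 ± 5.91 CPM in Y79 and ended at 2.46 ± 0.462 and 2.93 ± 0.305 CPM, and 1651 bp of its exons overlap ERCC1 or PPP1R13L. KCNF1, a potassium channel subunit, was likewise higher in Y79 before THZ1, at 54.3 ± 3.48 CPM against 5.87 ± 0.457 CPM, and had a line difference of -1.84 ± 0.22 (adjusted p = 0.000121). PCMT1, a methyltransferase that repairs aged proteins, began at similar levels, 67.3 ± 1.92 and 78.7 ± 2.26 CPM, and ended at 43.2 ± 5.77 CPM in WERI-Rb-1 and 15.4 ± 0.569 CPM in Y79. Its line difference was -1.71 ± 0.12 (adjusted p = 6.29e-06). In each of these 5 genes, DNAJA1 below included, the call and sign held under all 5 scalings, 3 of them by the naming rule.

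Fewer genes fell further in WERI-Rb-1. DDIT3, the stress-induced transcription factor CHOP (ENSG00000175197, chr12:57516588-57521737, minus strand), was at 51.2, 57.5 and 49.5 CPM with DMSO and 4.72, 5.86 and 6.17 CPM with THZ1 in WERI-Rb-1. For Y79 the levels were 12.6, 13.1 and 15.7 CPM and 2.23, 4.6 and 3.53 CPM. The treated levels of the lines were close to each other, while the DMSO levels lay far apart. The fall was 9.44-fold and 4.05-fold, a line difference of 1.22 ± 0.27 (adjusted p = 0.00663), and 518 bp of its exons overlap other genes, MARS among them.

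POLR1E, another RNA polymerase I subunit, had a line difference of 1.10 ± 0.20 (adjusted p = 0.00179), opposite in sign to that of CD3EAP. It fell from 27.3 ± 1 to 6.96 ± 1.49 CPM (SD, n = 3) in WERI-Rb-1 and from 36.9 ± 0.815 to 20.3 ± 3.22 CPM in Y79. DUSP16, a phosphatase of stress-activated kinases, had 1.09 ± 0.25 (adjusted p = 0.00865), and the zinc-finger genes ZNF180 and ZNF653 had 1.15 ± 0.19 and 1.06 ± 0.27 (adjusted p = 0.000952 and 0.0143). ZNF653 lay at 1.57 ± 0.202 CPM in treated WERI-Rb-1 and 2.79 ± 0.599 CPM in treated Y79, the lowest levels among these genes.

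BCL11A led the genes named because they rose in both lines and further in Y79. It encodes a zinc-finger repressor known for silencing fetal globin genes (ENSG00000119866, chr2:60450520-60555154, minus strand). In WERI-Rb-1 it was at 37.3, 33.9 and 35.4 CPM with DMSO and 42.3, 48 and 42.6 CPM with THZ1. Y79 libraries held 40.2, 38.5 and 38.1 CPM with DMSO and 177, 166 and 176 CPM with THZ1. DMSO levels lay close together in the lines, and treated Y79 libraries stood far above the rest. The rise was 1.25-fold in WERI-Rb-1 and 4.44-fold in Y79, a line difference of 1.83 ± 0.10 (adjusted p = 9.77e-07).

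CCND2, cyclin D2, was 10.1 times as high in Y79 as in WERI-Rb-1 with DMSO and 21 times with THZ1. Its treated libraries were at 257, 215 and 258 CPM in Y79 and 11.8, 11.2 and 11.8 CPM in WERI-Rb-1, and its line difference was 1.06 ± 0.13 (adjusted p = 0.000141). SLC25A16, a mitochondrial carrier, MIB2, a ubiquitin ligase for Notch ligands, and YPEL1 had line differences of 1.18 ± 0.13, 1.11 ± 0.18 and 1.06 ± 0.16 (adjusted p = 7.17e-05, 0.000898 and 0.000654). The exons of YPEL1 overlap those of PPIL2 over 2472 bp, and those of CCND2 a non-coding gene over 989 bp.

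Genes that rose in both lines and further in WERI-Rb-1 included LAPTM4A, a lysosomal membrane protein, at 165, 176 and 168 CPM with DMSO and 517, 506 and 525 CPM with THZ1 in WERI-Rb-1. In Y79 its levels were 67, 63.4 and 63.6 CPM and 87.8, 97.5 and 81.4 CPM. Its rise was 3.04-fold and 1.38-fold, a line difference of -1.15 ± 0.10 (adjusted p = 2.04e-05). TAF9, a subunit of TFIID, had -1.07 ± 0.10, ERH -0.80 ± 0.13, TOB1, an antiproliferative partner of the mRNA deadenylase complex, -0.80 ± 0.13 and PEX19, the chaperone of peroxisomal membrane proteins, -0.79 ± 0.08 (adjusted p = 3.14e-05, 0.00115, 0.000804 and 3.53e-05). TAF9 shares exonic sequence with AK6 and RAD17. Under mitochondrial scaling only 1 gene was left in this class.

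Of the kinases that THZ1 binds, CDK12 was called for a line difference, while CDK7 and CDK13 were not. CDK7 (ENSG00000134058, chr5:69234795-69277430, plus strand) was at 12.4, 10.3 and 10.6 CPM with DMSO and 2.76, 2.98 and 3.24 CPM with THZ1 in WERI-Rb-1. In Y79 it was at 19.2, 19.5 and 19.3 CPM and 5.26, 5.81 and 5.19 CPM. The Y79 libraries were the higher in both conditions, and the mRNA fell 3.71-fold in WERI-Rb-1 and 3.56-fold in Y79. The line difference was 0.06 ± 0.17 (adjusted p = 0.879), which misses the threshold.

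CDK12 (ENSG00000167258, chr17:39461511-39564907, plus strand) was at 153, 152 and 152 CPM with DMSO and 151, 166 and 152 CPM with THZ1 in WERI-Rb-1. The Y79 libraries were at 145, 142 and 139 CPM and 67, 43.6 and 63.7 CPM. Libraries of WERI-Rb-1 overlapped between conditions, and treated Y79 libraries lay below all others. The change was 0.04 ± 0.12 in WERI-Rb-1 (adjusted p = 0.804) and -1.29 ± 0.12 in Y79, a line difference of -1.32 ± 0.17 (adjusted p = 0.000169) that was called under all 5 scalings and was -1.16 without replicate 2 of treated Y79. CDK13 and CCNK, the cyclin of both kinases, had line differences of -0.09 ± 0.16 and -0.04 ± 0.16 (adjusted p = 0.783 and 0.927). The exons of CCNK overlap those of CCDC85C over 4893 bp, and reads in that stretch cannot be assigned.

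Of the partners of CDK7, cyclin H (CCNH) had a line difference of -0.64 ± 0.14 (adjusted p = 0.00581), with a change of -0.23 ± 0.10 in WERI-Rb-1 (adjusted p = 0.0567) and -0.87 ± 0.10 in Y79. MNAT1, the assembly factor of the kinase, had -0.40 ± 0.17 (adjusted p = 0.121), and -0.49 without replicate 2 of treated Y79, where it was called. Among 20 genes of TFIIH and nucleotide excision repair 1 was higher and 5 were lower in Y79, with a median of -0.27 against -0.05 over all genes. XPC, the damage sensor of repair, was the higher one at 0.50 ± 0.10. Under mitochondrial scaling the median of all genes shifted by 0.18 and under ribosomal protein scaling by -0.33, and list medians shifted with them, to -0.05 and -0.61 for this list.

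Genes of polymerase II, Mediator and TFIID counted 4 higher and 14 lower of 58, with a median of -0.21, and those of elongation and pausing 3 higher and 11 lower of 30, with a median of -0.10 (0.09 under mitochondrial scaling). The former list counted 5 higher and 22 lower without replicate 2 of treated Y79. Over all 10296 genes the shares were 10.1% higher and 17.9% lower, and 17.6% and 27.6% without that replicate. The counts of every list, here and below, are to be read against these shares, with no test of a list. POLR2A, the large polymerase subunit, had -0.16 ± 0.23 (adjusted p = 0.694), with treated Y79 libraries spread from 112 to 196 CPM. MED19, a Mediator subunit, and POLR2K, a small polymerase subunit, were the lowest of their list at -1.32 ± 0.29 and -1.14 ± 0.21 (adjusted p = 0.00707 and 0.00192), and MED13L and TAF3 were the highest at 0.67 ± 0.16 and 0.47 ± 0.16.

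BRD2, a BET protein that reads acetylated histones, rose in WERI-Rb-1 and fell in Y79 on this scale (0.49 ± 0.06 and -0.37 ± 0.06), with a line difference of -0.86 ± 0.09 (adjusted p = 5.38e-05). LARP7, a protein of the 7SK particle that holds P-TEFb inactive, was lower at -0.76 ± 0.11, and HEXIM1, the inhibitor in that particle, rose in both lines, 4.11-fold in WERI-Rb-1 and 3.12-fold in Y79 (line difference -0.40 ± 0.11, adjusted p = 0.0202, and -0.21, not called, under mitochondrial scaling). ELL, a subunit of the super elongation complex, and CCNT2, a cyclin of P-TEFb, were higher in Y79 at 0.97 ± 0.20 and 0.48 ± 0.11 (adjusted p = 0.00385 and 0.00778). The elongation list counted 8 higher and 13 lower without replicate 2 of treated Y79.

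MYCN (ENSG00000134323, chr2:15940564-15947007, plus strand) was at 345, 327 and 323 CPM with DMSO and 265, 247 and 246 CPM with THZ1 in WERI-Rb-1. Levels in Y79 were 1227, 1206 and 1264 CPM and 688, 724 and 722 CPM. All Y79 libraries were above all WERI-Rb-1 libraries, and treated libraries were below DMSO libraries in each line. The fall was 1.31-fold and 1.73-fold, a line difference of -0.40 ± 0.09 (adjusted p = 0.00876). Under mitochondrial scaling it was -0.21 and not called (adjusted p = 0.315). MAX, its dimer partner, had -0.25 ± 0.13 (adjusted p = 0.21), and MXD1, an antagonist that also binds MAX, was the called gene of the list on the higher side at 0.99 ± 0.11 (adjusted p = 6.31e-05). Of the 10 genes of the list 4 were higher and 1 lower without replicate 2 of treated Y79.

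Among photoreceptor genes 10 of 26 were lower in Y79 and 1 higher (median -0.21), and among progenitor and eye field genes 4 of 10 were lower and 1 higher (median -0.29). These shares were read against 17.9% lower and 10.1% higher over all genes, with no test of the lists, and 3 photoreceptor genes were higher and 12 lower without replicate 2 of treated Y79. PRPH2, a structural protein of outer segment discs (ENSG00000112619, chr6:42696600-42722574, minus strand), was at 27.9, 28.6 and 29.2 CPM with DMSO and 39.2, 35.8 and 39.1 CPM with THZ1 in WERI-Rb-1. For Y79 the levels were 13.9, 14 and 14.1 CPM and 6.42, 7.12 and 6.23 CPM. It rose in WERI-Rb-1 and fell in Y79 without overlap of groups, with a line difference of -1.5 ± 0.12 (adjusted p = 1.03e-05).

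SIX3, an eye field transcription factor (ENSG00000138083, chr2:44941898-44946077, plus strand), moved the same way, from 217, 223 and 208 CPM to 286, 264 and 263 CPM in WERI-Rb-1 and from 61.2, 70.5 and 72.5 CPM to 30.1, 30.4 and 32.8 CPM in Y79. Its line difference was -1.46 ± 0.11 (adjusted p = 6.29e-06), and that of NR2F1, a nuclear receptor of eye patterning, was -1.07 ± 0.17 (adjusted p = 0.00092). Under mitochondrial scaling PRPH2, SIX3 and NR2F1 had negative changes in both lines, and the line differences of SIX3 and NR2F1 were -1.27 and -0.87. HMGA1, a chromatin protein of proliferating progenitors, was the higher gene of the list at 0.44 ± 0.12 (adjusted p = 0.0247).

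The photoreceptor regulators OTX2 and CRX fell in both lines. OTX2 fell 2.89-fold in WERI-Rb-1, from 940.1 ± 26.9 to 325 ± 11.6 CPM (SD, n = 3), and 3.84-fold in Y79, from 609.6 ± 14 to 159 ± 14.6 CPM, a line difference of -0.41 ± 0.11 (adjusted p = 0.0156) that was not called under mitochondrial (-0.23) or ribosomal protein scaling (-0.72). CRX fell 1.53-fold in WERI-Rb-1 and 1.24-fold in Y79, a line difference of 0.30 ± 0.10 at the edge of the threshold (adjusted p = 0.0491), which turned to -0.05 under ribosomal protein scaling. RORB, a nuclear receptor of photoreceptor fate, had 0.23 ± 0.24 (adjusted p = 0.571), and 0.47, called, without replicate 2 of treated Y79, where RORB was at 21.1 CPM against 40.1 and 39.2 CPM in the others.

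The inhibitors of differentiation, which bind and block proneural transcription factors, had line differences of both signs. The 250 bases before the start of ID1 and ID2 are shown from RefSeq (GRCh38.p14), as the pair with line differences of opposite sign, with TATAAA or its reverse complement in capitals. The ID1 stretch is chr20:31605039-31605288 and that of ID2 is chr2:8681806-8682055, both on the plus strand.
ID1: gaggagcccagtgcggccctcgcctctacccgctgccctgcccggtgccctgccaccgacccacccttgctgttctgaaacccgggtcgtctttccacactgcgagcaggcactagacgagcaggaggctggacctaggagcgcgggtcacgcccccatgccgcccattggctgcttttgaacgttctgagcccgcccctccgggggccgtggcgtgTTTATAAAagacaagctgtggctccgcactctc
ID2: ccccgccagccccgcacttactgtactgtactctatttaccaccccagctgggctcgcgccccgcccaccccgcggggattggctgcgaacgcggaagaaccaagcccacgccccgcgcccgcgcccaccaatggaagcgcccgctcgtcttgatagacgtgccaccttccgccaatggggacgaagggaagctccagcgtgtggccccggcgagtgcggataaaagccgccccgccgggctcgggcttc
The ID1 stretch held 2 overlapping matches, starting 33 and 31 bases before the start, and the ID2 stretch none. Motif shares were taken over genes with exactly 1 promoter, each of 300 bases. TATAAA on either strand was present in 4.13% of 5864 such promoters of the genes measured and in 12.7% of all 22114 such promoters.

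ID1 was at 73.5, 81.9 and 67 CPM with DMSO and 251, 281 and 279 CPM with THZ1 in WERI-Rb-1. Y79 libraries held 65, 103 and 109 CPM with DMSO and 104, 142 and 84.8 CPM with THZ1. Its groups were apart in WERI-Rb-1 and overlapped in Y79. It rose 3.65-fold in WERI-Rb-1, its change in Y79 was 0.26 ± 0.20 (adjusted p = 0.282), and the line difference was -1.61 ± 0.28 (adjusted p = 0.00221).

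ID2 was at 12.7, 13.3 and 14 CPM with DMSO and 156, 164 and 167 CPM with THZ1 in WERI-Rb-1. In Y79 its levels were 6.72, 7.95 and 6.88 CPM and 122, 143 and 119.7 CPM. It rose 12.2-fold and 17.8-fold, and the line difference was 0.54 ± 0.12 (adjusted p = 0.00734), so the larger rise belonged to the line with the lower start. ID3 had a line difference of -1.03 ± 0.15 (adjusted p = 0.000388), with treated levels of 105, 105 and 106 CPM in WERI-Rb-1 and 47.4, 62 and 44.9 CPM in Y79. Of the 10 proneural, ID and HES genes, 1 was higher and 4 were lower in Y79 (median -0.20).

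Chaperone genes were split, with 4 higher and 10 lower of 38 (median -0.04). The 250 bases before the start of DNAJA1 and HSPA8 are shown, as the pair of heat shock genes with the lowest line differences, with the motif GAANNTTC (the paired half-sites of a heat shock element, the same on both strands) in capitals. The DNAJA1 stretch is chr9:33025023-33025272 on the plus strand and that of HSPA8 is chr11:123062137-123062386 on the minus strand (RefSeq, GRCh38.p14, whose start can differ from the gene's end in GENCODE).
DNAJA1: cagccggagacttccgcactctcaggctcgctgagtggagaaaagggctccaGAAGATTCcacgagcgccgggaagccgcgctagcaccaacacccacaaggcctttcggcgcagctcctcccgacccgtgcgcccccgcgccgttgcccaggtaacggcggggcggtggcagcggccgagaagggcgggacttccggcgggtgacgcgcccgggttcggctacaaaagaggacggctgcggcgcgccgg
HSPA8: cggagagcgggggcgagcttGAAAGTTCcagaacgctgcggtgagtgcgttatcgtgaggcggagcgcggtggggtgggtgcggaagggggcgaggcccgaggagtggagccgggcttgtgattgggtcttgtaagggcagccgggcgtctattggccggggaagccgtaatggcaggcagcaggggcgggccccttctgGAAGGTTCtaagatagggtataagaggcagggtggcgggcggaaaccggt
DNAJA1 held 1 match in these bases, starting 198 bases before the start, and HSPA8 held 2, at 230 and 50 bases. Among genes with exactly 1 promoter, the motif was present in 4.18% of the genes measured and in 7.04% of all genes. It was present in 3.62% of those called lower and 3.75% of those called higher in Y79.

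DNAJA1, a co-chaperone of HSP70 (ENSG00000086061, chr9:33025211-33039907, plus strand), was at 308, 320.4 and 301 CPM with DMSO and 195, 182 and 195 CPM with THZ1 in WERI-Rb-1. In Y79 it was at 262, 262 and 275 CPM and 44.3, 51 and 39.6 CPM. The treated groups of the lines stood far apart after similar starts. It fell 1.62-fold and 5.94-fold, a line difference of -1.87 ± 0.12 (adjusted p = 2.11e-06).

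HSPA8, the constitutive HSP70 (ENSG00000109971, chr11:123057489-123063230, minus strand), fell further in both lines. It was at 1281, 1338 and 1261 CPM with DMSO and 183, 178 and 191 CPM with THZ1 in WERI-Rb-1, and in Y79 at 1839, 1856 and 1777 CPM and 119.9, 155 and 126 CPM. The Y79 level was the higher with DMSO and the lower with THZ1. The falls of 7.03-fold and 13.7-fold gave a line difference of -0.96 ± 0.13 (adjusted p = 0.000242). On the other side DNAJC3, an inhibitor of the eIF2alpha kinases, had 1.21 ± 0.09 (adjusted p = 7.17e-06) and HSPA1B, an inducible HSP70, 0.55 ± 0.15 (adjusted p = 0.0247), the latter nearly identical to HSPA1A in sequence and so uncertain. Without replicate 2 of treated Y79 the list counted 5 higher and 17 lower.

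Of 35 genes of the integrated and endoplasmic reticulum stress responses 2 were higher and 9 lower (median -0.03). The higher genes were DDIT3 and DNAJC3, and the lowest were SESN2, a regulator of growth signalling that p53 and ATF4 can induce, at -1.21 ± 0.15 (adjusted p = 0.000191), and XBP1, a transcription factor of the unfolded protein response. XBP1 fell 4.8-fold in WERI-Rb-1 and 10.6-fold in Y79, with a line difference of -1.14 ± 0.16 (adjusted p = 0.000363).

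Of 79 ribosomal protein genes 8 were called, all higher in Y79 (median 0.38), a share of 10.1%, the same as over all genes. The median was -0.01 under ribosomal protein scaling, which sets the sum of these same mRNAs equal and so brings it near 0. It was 0.13 without replicate 2 of treated Y79, when 25 were higher and 4 lower. RPL17 showed how much that library weighed, with treated Y79 levels of 858, 1359 and 817 CPM and a line difference of 0.73 ± 0.21, or 0.46 without it. Of 22 cytosolic aminoacyl-tRNA synthetase genes, which charge tRNAs, 12 were lower and 2 higher (median -0.30), the largest share lower among the lists with at least 20 genes.

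FARSA, the alpha subunit of phenylalanyl-tRNA synthetase, was at 52.6, 60.7 and 59.9 CPM with DMSO and 17.4, 19.3 and 16.5 CPM with THZ1 in WERI-Rb-1. The Y79 libraries were at 122, 112 and 122 CPM and 14.1, 18.9 and 13.9 CPM. The DMSO level was the higher in Y79 and treated levels of the lines overlapped. It fell 3.25-fold and 7.62-fold, a line difference of -1.23 ± 0.16 (adjusted p = 0.000207). AIMP2, a scaffold of the synthetase complex, had -1.10 ± 0.23, and QARS and LARS, which charge glutamine and leucine tRNAs, were the 2 higher at 0.44 ± 0.12 and 0.32 ± 0.09 (adjusted p = 0.00533, 0.0227 and 0.0205). LARS turned to -0.01 under ribosomal protein scaling.

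Translation factors counted 8 on each side of 42 (median 0.23), and 16 higher and 17 lower without replicate 2 of treated Y79. EIF3E, a subunit of initiation factor 3, was at 195, 197 and 180.0 CPM with DMSO and 216, 221 and 219.6 CPM with THZ1 in WERI-Rb-1, and in Y79 at 308, 333 and 298 CPM and 643, 817 and 617 CPM. Its line difference was 0.95 ± 0.14 (adjusted p = 0.00042), and that of EEF1D, an elongation factor subunit, was 0.91 ± 0.22 (adjusted p = 0.0102). On the lower side were EIF4E, the cap-binding protein, at -1.0 ± 0.13, and EIF2B4, a subunit of the exchange factor of eIF2, at -0.64 ± 0.15 (adjusted p = 0.000242 and 0.00954).

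Ribosome assembly genes counted 4 higher and 12 lower of 40 (median -0.24; 6 and 20 without replicate 2 of treated Y79), with GAR1 and NOP16 lowest at -1.36 ± 0.15 and -1.36 ± 0.29 and NOB1 and FBL highest at 0.80 ± 0.15 and 0.69 ± 0.23. Without that replicate FBL was at 0.40, its treated Y79 levels being 745, 1212 and 699 CPM, and with RLE factors it was not called. Mitochondrial ribosomal proteins counted 8 higher and 21 lower of 76 (median -0.24), and 9 higher and 34 lower without replicate 2 of treated Y79. MRPL32 was at -1.41 ± 0.20 beside MRPS10, and MRPL11 and MRPL45 were at 1.13 ± 0.27 and 0.98 ± 0.15 (adjusted p = 0.00044, 0.0116 and 0.000533). Of the 13 mitochondrially encoded mRNAs 0 were called by edgeR (median -0.26), 4 had an unadjusted p under 0.05, DESeq2 called 2, and edgeR called 5 lower without that library. The 76 nuclear respiratory chain genes counted 1 higher and 6 lower, and 3 higher and 36 lower without it, against a rise from 17.9% to 27.6% lower over all genes. NDUFC1, of complex I, was lowest at -1.28 ± 0.19 (adjusted p = 0.000493), followed by UQCRFS1, the Rieske protein of complex III, at -0.69 ± 0.17, and NDUFA10 was the higher gene at 0.36 ± 0.12.

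**Figure D4:**
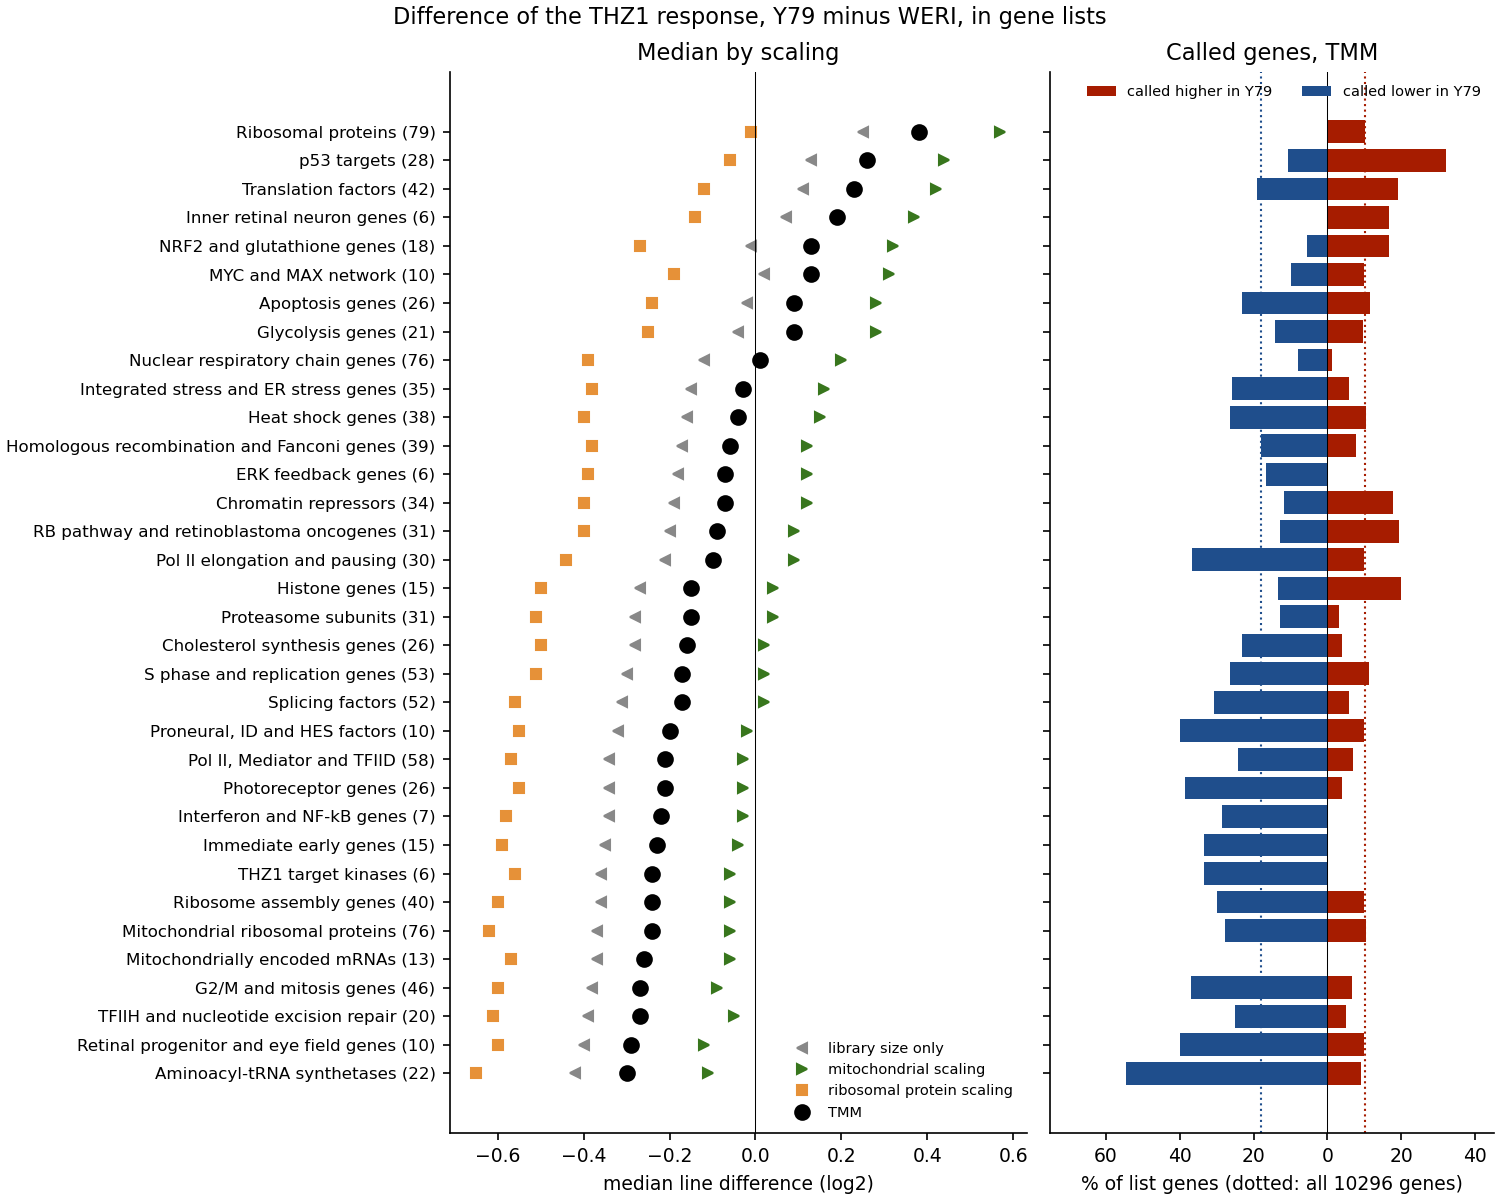
Left, the median line difference (log2) of each gene list with at least 6 genes under 4 scalings, the number of genes in brackets; right, the percent of its genes called higher (red) or lower (blue) in Y79 with TMM, with dotted lines at 10.1% and 17.9% for all 10296 genes. Ribosomal proteins stand at the top (median 0.38) and aminoacyl-tRNA synthetases at the bottom (-0.30), and the scaling shifts all lists together.

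Cell cycle genes were called on both sides, as were 10.1% (higher) and 17.9% (lower) of all genes. Of 46 G2/M and mitosis genes 17 were lower and 3 higher (median -0.27), and of 53 S phase and replication genes 14 were lower and 6 higher (median -0.17, and 0.02 under mitochondrial scaling). Without replicate 2 of treated Y79 they were 25 lower and 5 higher, and 23 lower and 7 higher. The shares over all genes were then 27.6% lower and 17.6% higher. BUB1, a kinase of the spindle checkpoint, was at 98.7, 95 and 98.9 CPM with DMSO and 56.3, 58.5 and 58.3 CPM with THZ1 in WERI-Rb-1. Levels in Y79 were 81.6, 85.5 and 80.0 CPM and 26.3, 24.6 and 25.1 CPM. It fell 1.69-fold and 3.25-fold with tight replicates, a line difference of -0.94 ± 0.09 (adjusted p = 2.29e-05), and cyclin A2 (CCNA2) had -0.84 ± 0.09 (adjusted p = 4.43e-05). CENPE, a kinetochore motor, and NCAPD2, of condensin, were on the higher side at 0.50 ± 0.15 and 0.39 ± 0.09.

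POLA2, a subunit of the DNA polymerase that starts synthesis, was at 28.8, 30.3 and 33.7 CPM with DMSO and 28.5, 26.9 and 26.9 CPM with THZ1 in WERI-Rb-1. For Y79 the levels were 68.6, 65.8 and 62.6 CPM and 18.2, 19.7 and 20.6 CPM. Its change was -0.17 ± 0.08 in WERI-Rb-1 (adjusted p = 0.0861) and -1.75 ± 0.09 in Y79, a line difference of -1.58 ± 0.12 (adjusted p = 6.29e-06), although 2012 bp of its exons overlap a non-coding gene. GINS3, of the replicative helicase, had -1.23 ± 0.15 (adjusted p = 0.000144). RFC4, a clamp loader subunit, and CDT1, the licensing factor, were highest at 0.76 ± 0.14 and 0.74 ± 0.20 (adjusted p = 0.0025 and 0.0182).

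Homologous recombination and Fanconi genes counted 3 higher and 7 lower of 39 (median -0.06), close to the 10.1% and 17.9% over all genes. Without replicate 2 of treated Y79 they counted 10 on each side, against 17.6% higher and 27.6% lower over all genes. UBE2T, the ubiquitin-conjugating enzyme of the Fanconi pathway, fell from 162 ± 2.31 to 54.3 ± 3.1 CPM (SD, n = 3) in WERI-Rb-1 and from 89.9 ± 1.15 to 13.2 ± 1.84 CPM in Y79, a line difference of -1.19 ± 0.12 (adjusted p = 3.98e-05). CHEK2, a checkpoint kinase, was at -0.88 ± 0.19, and RAD51D and MRE11 were higher at 0.60 ± 0.18 and 0.50 ± 0.12 (adjusted p = 0.00563, 0.0364 and 0.0109).

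p53 target genes counted 9 higher and 3 lower of 28 (median 0.26, and 0.44 and -0.06 under mitochondrial and ribosomal protein scaling). MDM2, the ubiquitin ligase of p53, was at 158, 144 and 148 CPM with DMSO and 103, 114 and 105 CPM with THZ1 in WERI-Rb-1. Y79 libraries held 219, 221 and 211 CPM and 303, 262 and 312 CPM. It fell in WERI-Rb-1 and rose in Y79 on this scale, with a line difference of 0.91 ± 0.11 (adjusted p = 0.000103). GADD45A and MDM2 were the highest of the list, and SESN2 and PMAIP1, the BH3-only protein NOXA, the lowest, PMAIP1 at -0.57 ± 0.11 (adjusted p = 0.00218).

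In the RB pathway and among retinoblastoma oncogenes 6 of 31 genes were higher and 4 lower (median -0.09), and 9 and 10 without replicate 2 of treated Y79. CCND2 and MDM2 were the highest. CDKN1C, a cyclin-dependent kinase inhibitor, and CDK4, the kinase of cyclin D, were the lowest at -1.39 ± 0.23 and -0.79 ± 0.23 (adjusted p = 0.00118 and 0.0288). CDK4 fell 3.27-fold in WERI-Rb-1 and 5.66-fold in Y79, and its exons overlap TSPAN31 over 1369 bp. Apoptosis genes counted 3 higher and 6 lower of 26 (median 0.09; 7 and 8 without that library). BAX was higher at 0.77 ± 0.22 (0.50 without that library, with treated Y79 levels of 93.3, 147 and 88.2 CPM), and CASP6 and BAK1 were lower at -0.64 ± 0.19 and -0.59 ± 0.14. MCL1, a short-lived survival protein, rose 1.22-fold and 1.3-fold, with a line difference of 0.09 ± 0.09 (adjusted p = 0.545).

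Immediate early genes, most of which rose in WERI-Rb-1 (12 of 15), had 5 called genes, all lower in Y79 (median -0.23), with JUND and ATF3, of the AP-1 and ATF families, lowest at -1.08 ± 0.22 and -0.91 ± 0.22 (adjusted p = 0.00426 and 0.0117). Of 6 ERK feedback genes only DUSP1, a MAP kinase phosphatase, was called, at -1.06 ± 0.23 (adjusted p = 0.00537). Without replicate 2 of treated Y79 this list counted 1 higher and 1 lower. Of 7 innate response genes 2 were lower, NFKBIA among them at -0.43 ± 0.14. Splicing factors counted 3 higher and 16 lower of 52 (median -0.17), PRPF4 and SNRPA1 lowest at -1.12 ± 0.13 and -0.99 ± 0.20 and SNRPA and SF3A2 highest at 0.68 ± 0.18 and 0.42 ± 0.13, and without replicate 2 of treated Y79 30 were lower. Proteasome subunits counted 1 higher and 4 lower of 31 (median -0.15), with PSMD1 and PSMA3 at -1.12 ± 0.11 and -0.64 ± 0.13 and PSMB1 at 0.73 ± 0.23, and 16 lower without that library. PSMB1 was then at 0.43, its treated Y79 levels being 86, 142 and 81 CPM.

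The metabolic lists were read against 28% of all genes called. Glycolysis genes counted 2 higher and 3 lower of 21 (median 0.09; 8 and 4 without replicate 2 of treated Y79). The glucose transporters SLC2A1 and SLC2A3 were lower at -1.19 ± 0.13 and -0.93 ± 0.16, and GAPDH and the lactate transporter SLC16A1 higher at 0.51 ± 0.15 and 0.48 ± 0.09. Cholesterol synthesis genes counted 1 higher and 6 lower of 26 (median -0.16), and 2 and 8 without that replicate. Called genes ran from DHCR7, the last enzyme of the pathway, at -1.36 ± 0.13 and ACAT2 at -0.89 ± 0.13 to SREBF1 at 0.43 ± 0.12. The exons of ACAT2 overlap SOD2 or TCP1 over 1538 bp. NRF2 and glutathione genes counted 3 higher and 1 lower of 18 (median 0.13, and -0.06 with 3 higher and 2 lower without that replicate), with GCLC and TKT at 0.66 ± 0.14 and 0.64 ± 0.14 and TXNRD1 at -0.36 ± 0.09.

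Chromatin repressors counted 6 higher and 4 lower of 34 (median -0.07), and 12 on each side without replicate 2 of treated Y79. TET1, which oxidises methylated cytosine, and HDAC2 were lowest at -0.80 ± 0.15 and -0.58 ± 0.13, and JARID2 and EZH1, of the Polycomb complexes, highest at 0.58 ± 0.12 and 0.47 ± 0.11. Of 15 histone genes the variants H2AFX and H3F3B were lower at -1.32 ± 0.19 and -0.79 ± 0.13 and 3 cluster genes higher, HIST1H2BN and HIST1H2BD leading at 0.98 ± 0.13 and 0.82 ± 0.16. Without that replicate 6 histone genes were lower and 3 higher. Of 6 inner retinal neuron genes 1, the bipolar cell receptor GRM6, was called at 0.65 ± 0.14, and of 3 glial genes 1, VIM, at 0.82 ± 0.19 (adjusted p = 0.00503 and 0.00768). Without that replicate 1 glial gene was higher and 2 were lower.

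Scaling ended some of these calls and turned some medians. Under mitochondrial scaling the genes not called included CCNH, CDK4, ATF3, BAK1, CASP6, PMAIP1, HDAC2, EIF2B4, PSMA3, UQCRFS1, TXNRD1 and NFKBIA, beside MYCN, OTX2 and HEXIM1. By library size alone the genes not called included CRX, CCNT2, CENPE, NCAPD2, EZH1, JARID2, HSPA1B, LARS, MED13L, MRE11, RAD51D, NDUFA10, SF3A2 and SREBF1. With RLE factors FBL, NDUFA10 and NFKBIA were not called. Ribosomal protein scaling ended most calls on the higher side among the list genes, among them those of ID2, MDM2, CCND2, ELL, MXD1, XPC, HMGA1, BAX, GAPDH, GCLC, TKT, VIM, GRM6, RFC4, CDT1, NOB1, FBL, PSMB1 and RPL17.

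The medians of the elongation, heat shock, stress response, recombination, chromatin, RB pathway, ERK feedback, S phase, splicing, proteasome, cholesterol and histone lists, negative with TMM, were 0.02 to 0.16 under mitochondrial scaling. Those of the MYC network, ribosomal protein, translation factor, p53, apoptosis, glycolysis and NRF2 lists, positive with TMM, were -0.27 to -0.01 under ribosomal protein scaling. For the ribosomal protein list itself a value near 0 follows from that scaling. By library size alone the medians of apoptosis, glycolysis and NRF2 genes were -0.02, -0.04 and -0.01. The respiratory chain list moved from 0.01 to -0.12 by library size, to 0.20 under mitochondrial scaling and to -0.27 without replicate 2 of treated Y79. Other list medians also moved without that replicate. They became -0.23 for elongation, -0.16 for heat shock, -0.10 for stress response, -0.25 for proteasome and -0.35 for proneural, ID and HES genes. Splicing, histone, innate response and glial genes were then at -0.26, -0.24, -0.37 and -0.22. Translation factors were at 0.12, apoptosis genes at 0.05, ERK feedback genes at -0.04 and recombination genes at 0.00.

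The line difference was set beside merged exon length, which counts the exon bases of all annotated transcripts of a gene once. In 4 groups of 2574 genes by merged exon length its median went from -0.16 in the shortest, over -0.09 and -0.02, to 0.04 in the longest. Genes called lower in Y79 numbered 585, 533, 426 and 296 in these groups and genes called higher 132, 232, 328 and 351. By gene span the median was -0.07, -0.08, -0.08 and 0.02, and by exon number it went from -0.13 to -0.00. Genes are not independent replicates, and these groups are a description. Without replicate 2 of treated Y79 the medians by exon length were -0.27, -0.13, -0.02 and 0.11, with 1007, 798, 612 and 424 genes lower and 183, 322, 519 and 793 higher.

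**Figure D5:**
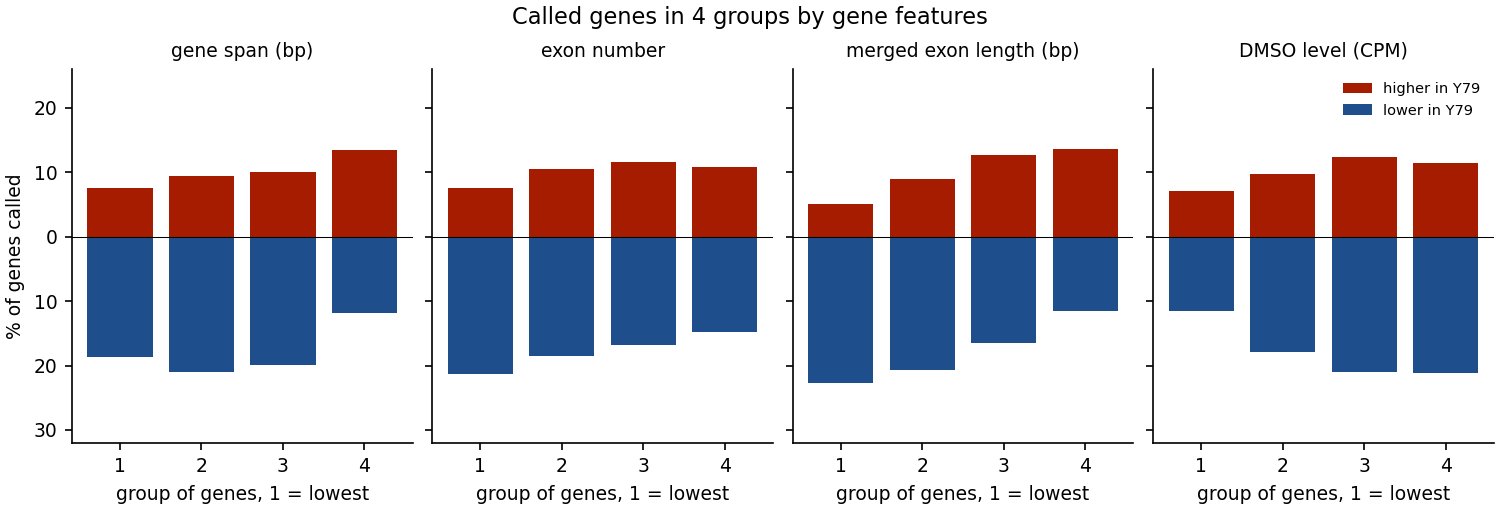
Bars show the percent of 2574 genes per group called higher (up, red) or lower (down, blue) in Y79, by gene span, exon number, merged exon length and DMSO level, group 1 on each horizontal axis being the lowest. The share called lower falls with merged exon length while the share called higher grows.

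Chromosomes differed within a narrow range, from a median of -0.14 on chromosome 5 to 0.07 on chromosome 19 among the autosomes and X. On chromosome 19 7.69% of 767 genes were called lower in Y79, against 23.1% of 350 on chromosome 4 and 22.8% of 452 on chromosome 5. Promoters were searched on both strands for 6 motifs, in genes with exactly 1 promoter. TATAAA, GAANNTTC and CCAAT were in 9.59%, 2.74% and 42.5% of 73 promoters of genes that fell in Y79 and rose in WERI-Rb-1. That compares with 4.13%, 4.18% and 38.8% of the 5864 such promoters of the genes measured. For CACGTG, TGACGTCA and TTTCGCGC the shares were 8.22%, 5.48% and 1.37%, against 11%, 4.08% and 1.16%. In 40 promoters of genes that rose in Y79 and fell in WERI-Rb-1 the shares of TATAAA, GAANNTTC and CCAAT were 5%, 7.5% and 35%. These shares are descriptions.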

How the data were processed

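RNA of 12 libraries (2 lines, THZ1 or DMSO, 3 each) was prepared with the NEBNext Ultra RNA kit, which does not mark strand, per the labels' protocols. The authors deposited whole-number read counts per feature, with no normalization recorded. Cufflinks and the GRCh38 build are named in the submitters' processing notes without a role. What aligned and counted the reads, and against which annotation, was not given in the sources used here. Totals were 29677575 to 37433574 counts per library.

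Groups came from the sample titles. Counts as deposited were fitted with edgeR 4.0.16 (R 4.3.3) after its filter on low counts: TMM scaling, 4 group means, robust quasi-likelihood, contrasts for each line and for their difference, and adjustment over 18844 features. The standard error is the log2 change divided by the square root of F. Gene positions and exon overlaps came from GENCODE 29, in which all 19974 Ensembl identifiers were found, and promoters from RefSeq, of which 5864 genes had exactly 1. The genes measured and the gene lists were chosen with earlier results of these data known. Named genes were, per class, the 5 (opposite classes 6) with the largest line difference among genes called under 3 scalings whose groups did not overlap, a fixed set of regulators, and up to 2 called genes at each end of every list; a few genes the rule names are not reported here. Symbols carried by more than 1 identifier (HSPA14 and DIABLO) were left out of lists. On simulated counts of 18844 features, few of which carried a known line difference, the test recovered 22.4% of 1.5-fold changes. It recovered 80.6% of 2-fold and 98.5% of 3-fold changes, with 4 false calls. Alternatives were DESeq2 1.42.0, other scalings, a stricter threshold, no filter, a replicate block and leaving out each library.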

Additional observations from a re-analysis of the deposited data

Results flagged for a closer look

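The 12 genes named from the opposite classes were marked because the lines differ by the test of the line difference itself. Every treated library lay above the DMSO libraries in 1 line and below them in the other (TMM scale), a condition of naming them. Lower in Y79 were ARL2BP (-2.20), UBB (-1.95), GNG10 (-1.79), SLC31A1 (-1.64), BOLA3 (-1.63) and MRPS10 (-1.55). Higher in Y79 were RPS26 (1.85), RORA (1.71), RHOC (1.70), AHNAK (1.65), RGS10 (1.46) and GADD45A (1.40). With mitochondrial or ribosomal protein scaling all 12 had negative changes in both lines. The sign of each line difference was kept, which the naming rule required for mitochondrial scaling. Groups of 3 libraries are too small for a check of single far values.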

How the results depend on the processing

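All 2883 calls kept their direction when any 1 library was left out, 1866 remained called without any 1, and 1099 of these also under TMM, library-size and mitochondrial scaling. Numbers below are genes higher and lower in Y79 (1043 and 1840 with TMM), then those that fell in both further in Y79 (940) or WERI-Rb-1 (241), rose in both further in Y79 (302) or WERI-Rb-1 (172), fell in Y79 and rose in WERI-Rb-1 (132), and the reverse (81). At an adjusted p under 0.01 they were 484, 1053, 510, 75, 120, 59, 65 and 28. Without each library in turn the ranges were 712 to 1817, 1357 to 2841, 676 to 1420, 135 to 532, 175 to 517, 98 to 486, 98 to 238 and 60 to 170. The upper ends were all reached without Y79 THZ1 replicate 2. Leaving out the other 11 libraries gave at most 1107, 1656, 906, 230, 345, 137, 120 and 81. For single lines the ranges were 2817 to 3315 higher and 4520 to 5258 lower in WERI-Rb-1, and 2961 to 3185 and 4865 to 5328 in Y79.

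By library size alone 546 genes were higher, 1744 fell in both further in Y79, 78 rose in both further in Y79 and 22 rose in Y79 and fell in WERI-Rb-1, while 1630 rose in WERI-Rb-1 and 1475 in Y79. With mitochondrial scaling 638 were lower, 1298 fell in both further in WERI-Rb-1, 3 and 1 rose in both, and 0 and 16 were opposite, with 14 higher and 10083 lower in WERI-Rb-1 and 71 and 9749 in Y79. With ribosomal protein scaling 47 were higher, 2009 and 43 fell in both, 0 and 3 rose in both, and 3 and 0 were opposite, with 50 and 9730 in WERI-Rb-1 and 23 and 9950 in Y79. DESeq2 called 1394 and 2057, including 2882 of the 2883, and 472 rose in both further in Y79. Replicate numbers did not pair the libraries: correlations of same-numbered deviations were -0.207, 0.028 and -0.158 in WERI-Rb-1 and -0.108, -0.103 and -0.069 in Y79. With a replicate block within each line 689 were higher and 1356 lower, 127 fell in both further in WERI-Rb-1, and 187 and 90 rose in both; a block shared by the lines gave 885 and 1612.

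Of 138 named genes 129 were called, and 68 of these kept their call under every alternative. The call was lost by 59 under at least 1 scaling, by 22 without at least 1 library and by 0 with DESeq2. Genes named from the classes had been chosen as called under TMM, library size and mitochondrial scaling. Signs turned for MCL1 (-0.03) and CDK7 (-0.06) by library size, for POLR2A (0.03), CDK13 (0.09) and CCNK (0.15) with mitochondrial scaling, and for MCL1 (-0.23), CDK7 (-0.28), RORB (-0.03), LARS (-0.01) and CRX (-0.05) with ribosomal protein scaling. Without 1 library CCNK ranged from -0.17 to 0.06, CDK13 from -0.19 to 0.05, CDK7 from -0.03 to 0.12 and POLR2A from -0.29 to 0.05. The causes were not tested. On simulated counts, where few genes carried a line difference, 2-fold differences were mostly recovered and 1.5-fold ones mostly not. In the data far more genes were called, which eases the adjusted threshold, and only 310 of the 2883 called genes differed by at least 2-fold. The recovered shares therefore do not carry over to these data.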

Other observations

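The table also holds 7531 unannotated loci, of which 3979 passed the filter on low counts. Of these 173 were called higher and 105 lower in Y79 (6.99%), with a median line difference of 0.12. Of the 14865 Ensembl genes tested 22.0% were called. Among the 4569 of them below the level rule 5.58% were higher and 2.74% lower (8.32% in all), with a median of 0.16. The median change of the loci was 0.51 in WERI-Rb-1 and 0.64 in Y79 on the log2 scale. The medians were -0.20 and -0.25 for the 10296 genes and 0.09 and 0.22 for the 4569 genes. The loci are identified by number only and are given here as values.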
